A study of Mus musculus with 6 samples.

Results

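The 39 genes described here make up the cholesterol and fatty acid synthesis module of the mouse NSC-34 transcriptome, out of 23038 genes listed per library. They were chosen by gene symbol: 18 enzymes grouped here as sterol synthesis (8 of the mevalonate and isoprenoid steps and 10 from squalene to cholesterol), 5 genes of the SREBP control system, 8 genes of sterol transport and LXR signaling, and 8 enzymes of fatty acid synthesis. The list was proposed with earlier results of these same libraries known, so every siQk against siNC value of a member is a description and supports nothing by itself. All 39 passed the filter on low counts, which 12665 of the 23038 genes passed.

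NSC34 cells (written NSC-34 in the study) are a hybrid of mouse neuroblastoma and spinal cord motor neuron cells used as a motor neuron model, and both groups were grown in DMEM with 10% FCS. Poly-A RNA was sequenced from 3 libraries of cells that received control siRNA (siNC) and 3 libraries of cells that received siRNA against Qk (siQk), the gene of the Quaking RNA-binding proteins. A set of 3 different siRNAs against Qk was used and which library received which is not given, so the siRNA and the library cannot be told apart, and all cells are of 1 line. The labels call the 3 samples of a group biological replicates and state no genetic modification.

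Cells make cholesterol from acetyl-CoA through mevalonate, isoprenoid diphosphates, squalene and lanosterol. When sterol in the endoplasmic reticulum is low, SCAP carries the SREBP transcription factors to the Golgi, where they are cleaved and released to switch on these enzymes, while the INSIG proteins hold SCAP back when sterol is plentiful. SREBF2 is best known for the sterol enzymes and SREBF1 for fatty acid synthesis, and the oxysterol receptors of the LXR family drive sterol export and lipogenesis. In the nervous system cholesterol is made locally, with the highest demand in myelinating cells.

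Total expected counts per library ran from 43000503 to 53565950. Qk was lower in every siQk library, at 9.67, 8.18 and 14.9 RPKM (reads scaled by exon length and library total) in siNC 1 to 3 and 1.39, 1.71 and 1.10 RPKM in siQk 1 to 3. Its log2 fold change was -2.997 (SE 0.34, edgeR adjusted p = 0.0149), and it was the one gene of 12665 called at p under 0.01 with an adjusted p under 0.1. siQk 2 and siNC 3 stood apart from the other libraries on the first and the second principal component, which carried 41.2% and 28.9% of the variance. Of the 11 markers of motor neurons and neuroblastoma, 8 were over 1 RPKM in every library, with the intermediate filament gene Prph between 421 and 949 RPKM. The motor neuron markers Chat (0.0297 to 0.141 RPKM) and Mnx1 (0 to 0.0944 RPKM) were near 0, while Slc18a3 was at 1.56 to 2.29 RPKM. The motor neuron factor Isl1 was at 4.83, 4.75 and 4.795 RPKM in siNC and 9.63, 7.80 and 8.33 RPKM in siQk, with the groups apart, and its part in the values below was not tested. The oligodendrocyte markers Mbp, Mog and Mag were at 0.561 RPKM or less in every library.

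The promoter letters of 4 sterol enzymes are shown because these genes carry the values that the description turns on. Of the 30 members with a promoter window, Hmgcs1, the cytosolic HMG-CoA synthase, was the only one whose window held the sterol regulatory element letters. Nsdhl and Hsd17b7 had the smallest p of the 39 genes, and Sc5d did not overlap between the groups and held an E-box. The windows are the 250 bases before the RefSeq gene start (GRCm38.p6), printed 5′ to 3′ on the strand of the gene, and only the longest run that no annotated exon covers is printed. Capitals mark matches on either strand. The letters searched were TCACNCCAC, the core of a sterol regulatory element that SREBP binds. The second motif was CCAAT, the box read by the factor NF-Y. The next motif searched was GGGCGG, the box read by the factor Sp1. The last was the E-box CACGTG. No match overlapped another in these 4 runs.
Hmgcs1 (chr13:119690101-119690350, plus strand, 250 bases): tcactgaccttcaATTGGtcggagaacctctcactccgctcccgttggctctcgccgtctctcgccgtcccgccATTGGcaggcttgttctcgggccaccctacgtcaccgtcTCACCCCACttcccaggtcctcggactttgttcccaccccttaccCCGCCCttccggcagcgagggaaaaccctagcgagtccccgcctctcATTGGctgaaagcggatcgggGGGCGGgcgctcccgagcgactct
Hsd17b7 (chr1:169969242-169969408, minus strand, 167 bases): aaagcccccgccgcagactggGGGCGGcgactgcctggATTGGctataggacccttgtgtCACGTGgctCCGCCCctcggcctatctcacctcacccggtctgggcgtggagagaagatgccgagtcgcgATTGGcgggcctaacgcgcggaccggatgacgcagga
Nsdhl (chrX:72918412-72918520, plus strand, 109 bases): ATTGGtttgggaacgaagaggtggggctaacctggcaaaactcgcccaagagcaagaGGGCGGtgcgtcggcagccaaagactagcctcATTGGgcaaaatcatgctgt
Sc5d (chr9:42264301-42264550, minus strand, 250 bases): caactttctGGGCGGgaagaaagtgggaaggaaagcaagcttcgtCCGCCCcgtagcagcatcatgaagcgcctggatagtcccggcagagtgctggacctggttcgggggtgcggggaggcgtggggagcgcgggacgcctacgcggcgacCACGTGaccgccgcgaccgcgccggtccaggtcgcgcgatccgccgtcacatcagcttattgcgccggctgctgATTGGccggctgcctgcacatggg

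Promoter entries were matched for 30 of the 39 genes, in 39 windows. No entry was matched for Fdps, Fdft1, Sqle, Stard4, Npc1, Abcg1, Scd1, Scd2 and Fads1, so these were not searched. TCACNCCAC was in 1 of the 39 windows (2.56%) and in 1.05% of all 32851 promoter windows of that length. Its match at Hmgcs1 lay 137 to 129 bases before the start, between CCAAT matches at 176 and 45 bases before it. CCAAT was in 22 windows (56.4%, against 33.9% of all windows) and GGGCGG in 26 (66.7%, against 32.7%). CACGTG was in 6 windows (15.4%, against 6.02%), those of Abca1, Dhcr7, Hsd17b7, Insig1, Sc5d and Scap. These are letter matches only, and no binding was measured.

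In control cells the module spanned a wide range of levels. Scd2, a stearoyl-CoA desaturase, was highest at 395 ± 76.7 RPKM (SD, n = 3), and Acly, which makes cytosolic acetyl-CoA from citrate, followed at 341 ± 24.7 RPKM. Fdps (farnesyl diphosphate synthase, 193 ± 26.9 RPKM), Fasn (fatty acid synthase, 116 ± 18.4 RPKM) and Insig1 (102 ± 24.1 RPKM) were the others over 100 RPKM. Another 24 genes lay between 10 and 100 RPKM and 10 lay below. The lowest were the LXR receptor Nr1h3 (1.79 ± 0.883 RPKM), the isopentenyl diphosphate isomerase Idi1 (1.31 ± 0.0554 RPKM) and the sterol exporter Abcg1 (0.762 ± 0.227 RPKM), with 77 to 376 counts per library among them. The median siNC level was 26.4 RPKM for the members and 10.5 RPKM for all genes tested. Of the 38 neighbouring pairs in the siNC order, 34 overlapped in their library ranges. The 4 breaks were below Acly, below Fdps, below Acaca and below Idi1.

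**Figure D1:**
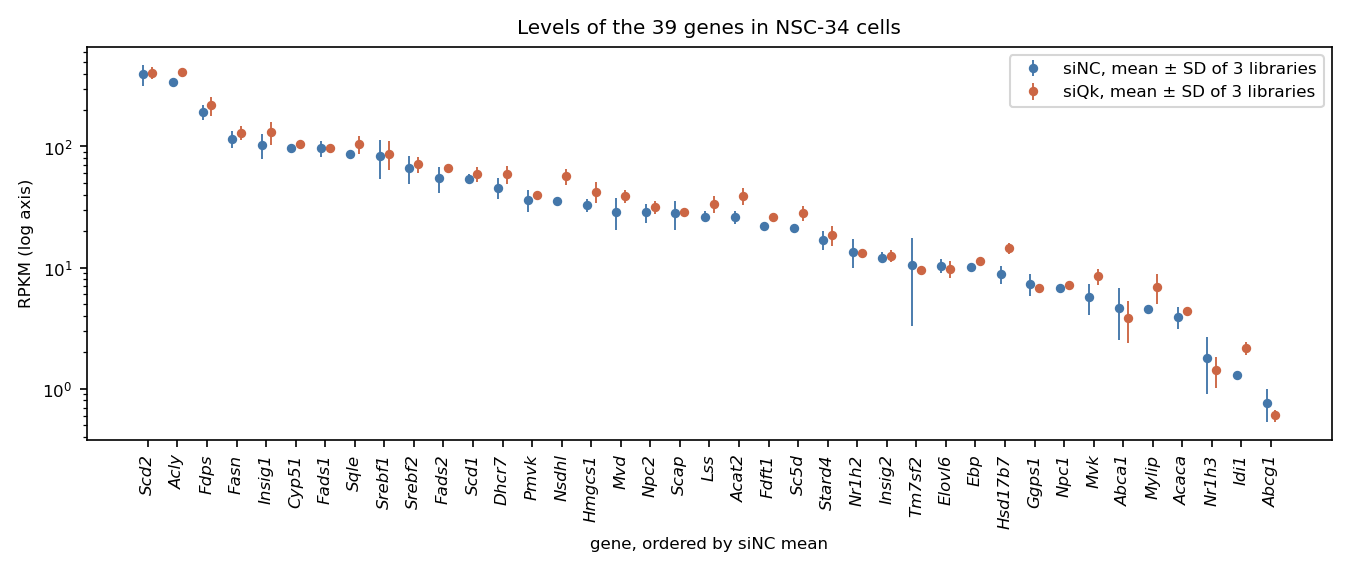
Mean RPKM (log axis) of each of the 39 genes in siNC (blue) and siQk (orange), ordered by the siNC mean, with bars of 1 SD over 3 libraries. Scd2 at 395 RPKM and Abcg1 at 0.762 RPKM are the ends of the siNC order.

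None of the 39 genes was called between siQk and siNC, beside 0.0079% of all genes tested, and each had an edgeR adjusted p of 0.9996. In the fold changes, 32 of the 39 were above 0 and 7 below, with a median log2 fold change of 0.14 against 0.0034 over all genes tested, of which 50.8% were above 0. In 15 of the 39 the sign changed in at least 1 of 16 alternative settings. At an unadjusted p under 0.05 the siQk level was higher for 6 members (15.4%, beside 1.2% of all genes) and lower for 0 (beside 1.69% of all genes). The 6 were Nsdhl, Hsd17b7, Acat2, Idi1, Mylip and Mvk, and 5 of them are sterol synthesis enzymes. Without siQk 3 the 6 became 2 (beside 2.30% of all genes in either direction in that fit), and without siNC 1 the median of the members was 0.22. The 3 siQk values lay above all 3 siNC values in RPKM for 11 members (28.2%, beside 5.35% of all genes) and below them for 0 (beside 3.49% of all genes). After TMM scaling the 11 became 8 (beside 4.45% of all genes higher and 4.07% lower on that scale), because Fdft1, Npc1 and Mylip then overlapped. Since the list was proposed from these libraries, nothing is read from the distance between these shares. For a single gene the exact two-sided permutation test of 3 against 3 libraries cannot go below p = 0.1, the value that each of the 11 genes reached.

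**Figure D2:**
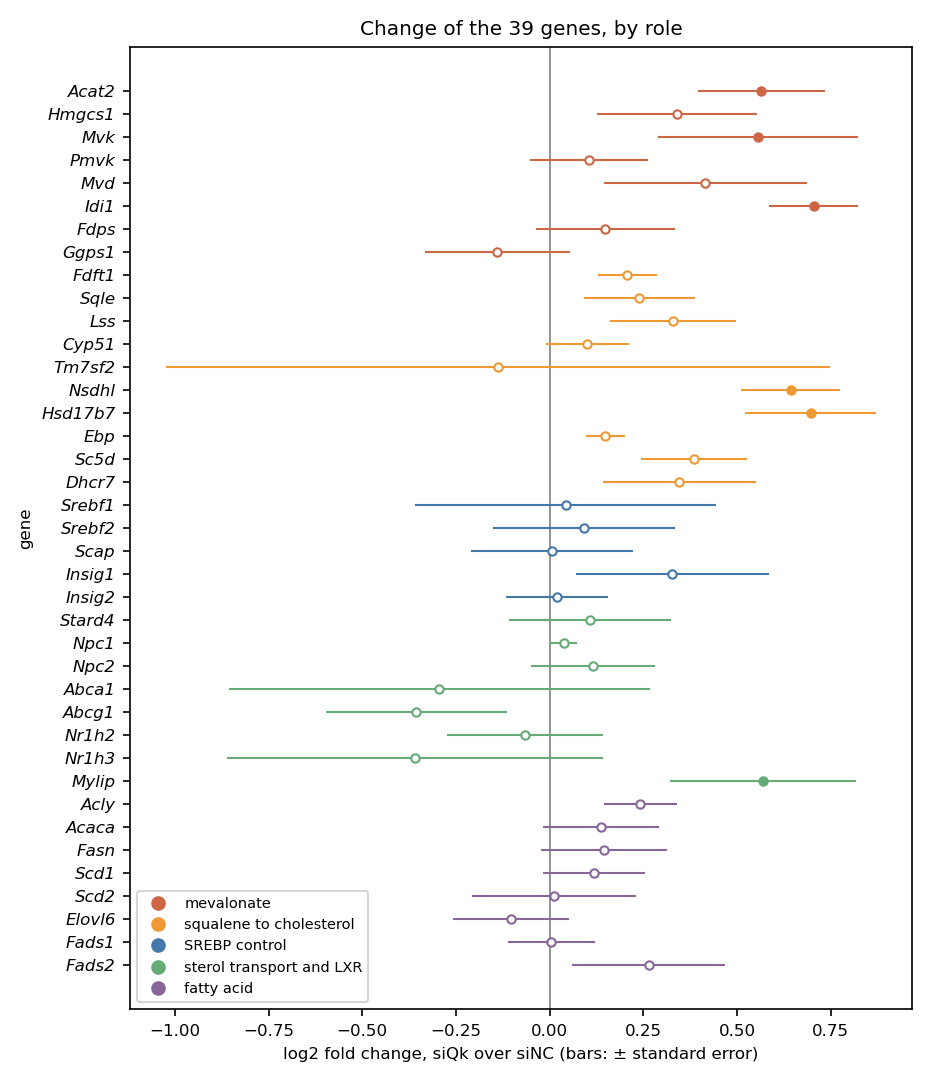
Log2 fold change of siQk over siNC (horizontal axis, bars of 1 standard error) for the 39 genes, colored by role, with filled points for an unadjusted p under 0.05. The 6 filled points are all above 0, and 2 of the 18 sterol enzymes, Ggps1 and Tm7sf2, lie below 0.

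Among the roles, the sterol enzymes had the highest values. Of the 8 mevalonate genes, 7 had a fold change above 0 (median log2 fold change 0.38), 3 had an unadjusted p under 0.05 (37.5%, beside 1.2% of all genes) and 3 did not overlap between groups (37.5%, beside 5.35%), all with siQk higher. Acat2, the thiolase that joins acetyl-CoA units at the start of the pathway (chr17:12942890-12960747, minus strand), had 28.7, 27.3 and 22.3 RPKM in siNC 1 to 3 and 31.8, 43.7 and 42.2 RPKM in siQk 1 to 3. All siQk values were above all siNC values, with siQk 1 nearest to the controls, and the log2 fold change was 0.56 (SE 0.17, unadjusted p = 0.0106 in the edgeR fit over all genes). Of the 75-base exon stretches of Acat2, 33.9% also occur in other annotated genes, most of all in Acat3. The split of reads between Acat2 and these genes is uncertain. Acat3 itself had 45.0, 41.3 and 45.7 RPKM in siNC and 48.2, 48.1 and 49.3 RPKM in siQk (log2 fold change 0.11, SE 0.07).

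Idi1, which interconverts the isoprenoid building blocks (chr13:8885501-8892451, plus strand), had 1.25, 1.33 and 1.35 RPKM in siNC and 1.87, 2.40 and 2.26 RPKM in siQk. The groups were apart, and at 0.70 (SE 0.12, unadjusted p = 0.0170 in edgeR) it had the highest log2 fold change of the 39 in this fit. With the replicate number as a block Hsd17b7 was higher, at 0.706 against 0.698 for Idi1. Idi1 is a low gene, with 170 to 376 counts per library. Of its 75-base stretches, 16.7% also occur in other annotated genes, most of all in Gm13502. Mvk, mevalonate kinase (chr5:114444269-114460591, plus strand), had 6.96, 6.31 and 3.84 RPKM in siNC and 7.44, 9.86 and 8.15 RPKM in siQk. Its log2 fold change of 0.56 (SE 0.27, unadjusted p = 0.0462 in edgeR) went with a low siNC 3 value, being 0.35 without siNC 3 and 0.24 without siNC 3 and siQk 2 together.

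The other mevalonate genes overlapped between the groups. Hmgcs1 (chr13:119690379-119708260, plus strand) had 32.5, 29.1 and 36.8 RPKM in siNC and 33.3, 43.7 and 50.1 RPKM in siQk (log2 fold change 0.34, SE 0.21), so that siQk 1 was within the control range. Without siQk 3 that value was 0.19. Fdps, the most abundant of the group, had 224, 175 and 181 RPKM in siNC and 181, 261 and 213 RPKM in siQk (log2 fold change 0.15, SE 0.19). Of its 75-base stretches, 23.5% also occur in other annotated genes, most of all in Gm43738. Its log2 fold change was 0.0027 without siQk 2 and 0.27 without siQk 1. The kinase Pmvk and the decarboxylase Mvd had log2 fold changes of 0.10 (SE 0.16) and 0.41 (SE 0.27), and in both siNC 3 was the lowest library. Without it the values were -0.04 for Pmvk and 0.21 for Mvd. Ggps1, which makes geranylgeranyl diphosphate for protein prenylation rather than sterol, was the one gene of the 8 below 0, at -0.14 (SE 0.19), and was at 0.07 without siNC 3.

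From squalene to cholesterol, 9 of 10 genes had a fold change above 0 (median log2 fold change 0.28), 2 had an unadjusted p under 0.05 (beside 1.2% of all genes) and 5 did not overlap between groups (beside 5.35%), all with siQk higher. The 2 act together: Nsdhl, a sterol dehydrogenase, and Hsd17b7, a sterol ketoreductase, are successive enzymes in the removal of methyl groups from the sterol ring. Nsdhl (chrX:72918557-72958514, plus strand) had nearly equal control values of 36.0, 35.7 and 35.7 RPKM, and 47.4, 59.3 and 63.9 RPKM in siQk. Its log2 fold change was 0.64 (SE 0.13, unadjusted p = 0.00292 in edgeR), a ratio of group mean RPKM of 159%. Hsd17b7 (chr1:169949535-169969241, minus strand) had 7.11, 9.95 and 9.36 RPKM in siNC and 13.0, 16.1 and 14.6 RPKM in siQk. Its log2 fold change was 0.70 (SE 0.18, unadjusted p = 0.00389 in edgeR), a ratio of 165%. Neither gene shared a 75-base stretch or an exon with another annotated gene. The oxidase of the same demethylation step, Msmo1 (listed as Sc4mol, no member, named after its values were seen), had 20.9, 19.3 and 21.2 RPKM in siNC and 20.9, 27.5 and 26.7 RPKM in siQk, and siQk 1 overlapped the controls.

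**Figure D3:**
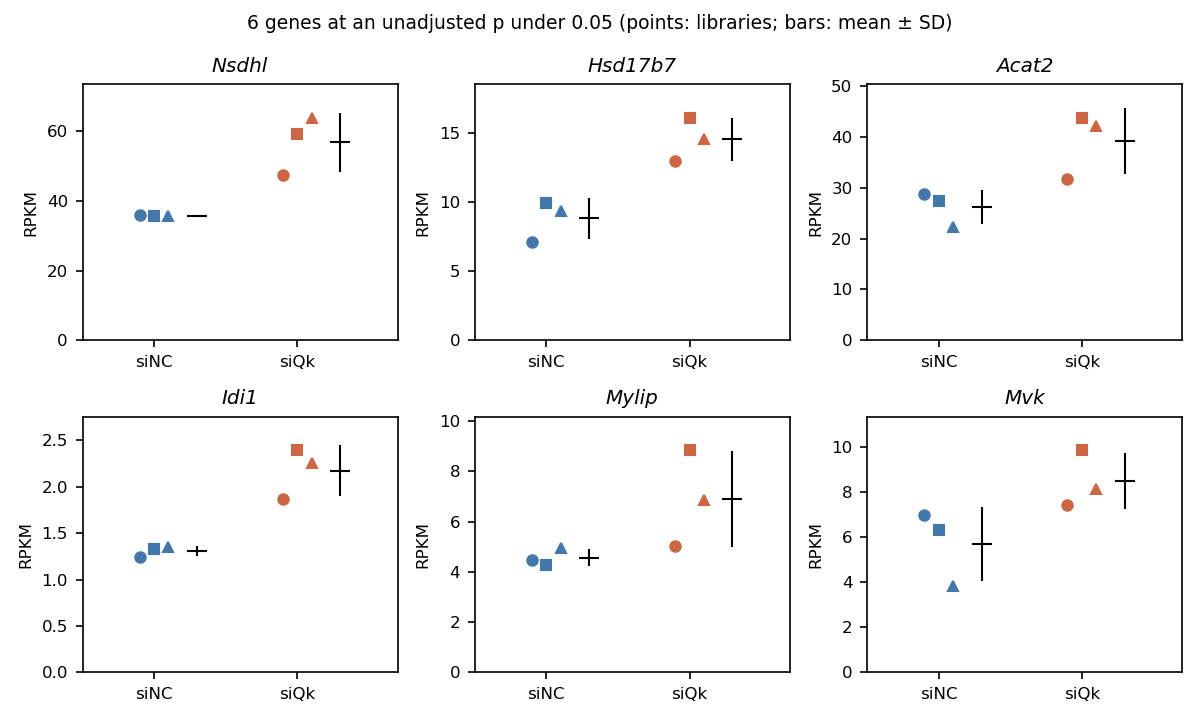
RPKM (vertical axes, from 0) of the 6 genes with an unadjusted p under 0.05, with circles, squares and triangles for replicates 1, 2 and 3, and bars for the mean ± SD of 3 libraries. In all 6 the siQk points lie above the siNC points, and Mylip comes closest to overlap (4.93 RPKM in siNC 3, 5.02 RPKM in siQk 1).

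The next steps of the late pathway had smaller differences. Sc5d, a sterol desaturase, had 19.3, 21.4 and 22.7 RPKM in siNC and 26.1, 32.9 and 25.5 RPKM in siQk (log2 fold change 0.39, SE 0.14). The groups were apart for it, as they were for the squalene synthase Fdft1 (23.6, 21.7 and 21.01 against 23.7, 27.4 and 26.8 RPKM, log2 fold change 0.21, SE 0.08). Fdft1 shared 18.3% of its exon bases with the opposite strand of Ctsb, and the kit keeps no strand. The sterol isomerase Ebp was also apart, by a small margin, at 10.9, 10.1 and 9.32 RPKM in siNC and 11.3, 11.7 and 11.2 RPKM in siQk (log2 fold change 0.15, SE 0.05). The unadjusted p in edgeR was 0.0516 for Sc5d, 0.195 for Fdft1 and 0.426 for Ebp.

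Cyp51, the lanosterol demethylase and the most abundant of these 10 by group mean, had 99.4, 86.7 and 104 RPKM in siNC and 99.9, 112 and 104 RPKM in siQk, which overlapped (log2 fold change 0.10, SE 0.11, from 0.0043 without siNC 2 to 0.18 without siNC 3). In siNC 2, siQk 2 and siQk 3 the level of Sqle was above that of Cyp51. The epoxidase Sqle, the cyclase Lss and the final reductase Dhcr7 had log2 fold changes of 0.24 (SE 0.15), 0.33 (SE 0.17) and 0.35 (SE 0.20), with overlapping groups. Sqle was at 0.12 without siQk 2, and Dhcr7 at 0.19 without siQk 3 and 0.22 without siNC 3. The sterol reductase Tm7sf2 was at 14.1, 14.9 and 2.18 RPKM in siNC and 9.31, 8.85 and 10.3 RPKM in siQk. A single library, siNC 3, sets its error (log2 fold change -0.14, SE 0.89), and the value was -0.61 without that library and 0.19 without siNC 2. Exons of Vps51 overlap 12.1% of its exon bases on the same strand.

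The siQk libraries were not alike in these genes. siQk 1 had the lowest siQk value for 14 of the 18 sterol enzymes (77.8%), against 29.8% of all genes tested. The median of the 18 enzymes, as log2 CPM relative to the siNC mean of each gene, was 0.13 in siQk 1, 0.41 in siQk 2 and 0.44 in siQk 3, and lay between -0.015 and 0.067 in the siNC libraries. Over all genes the same median was 0.017, 0.022 and 0.013 in siQk 1 to 3. For 10 of the 18 enzymes the highest of the 6 libraries was siQk 2, one of the libraries that stand apart. Leaving out siQk 2 and siNC 3 together, the median log2 fold change was 0.23 for the sterol enzymes and 0.14 for all 39 members, and 5 members had an unadjusted p under 0.05, beside 6.19% of all genes in either direction in that fit. Without siQk 3 the median of the sterol enzymes, 0.33 with all libraries, was 0.20.

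**Figure D4:**
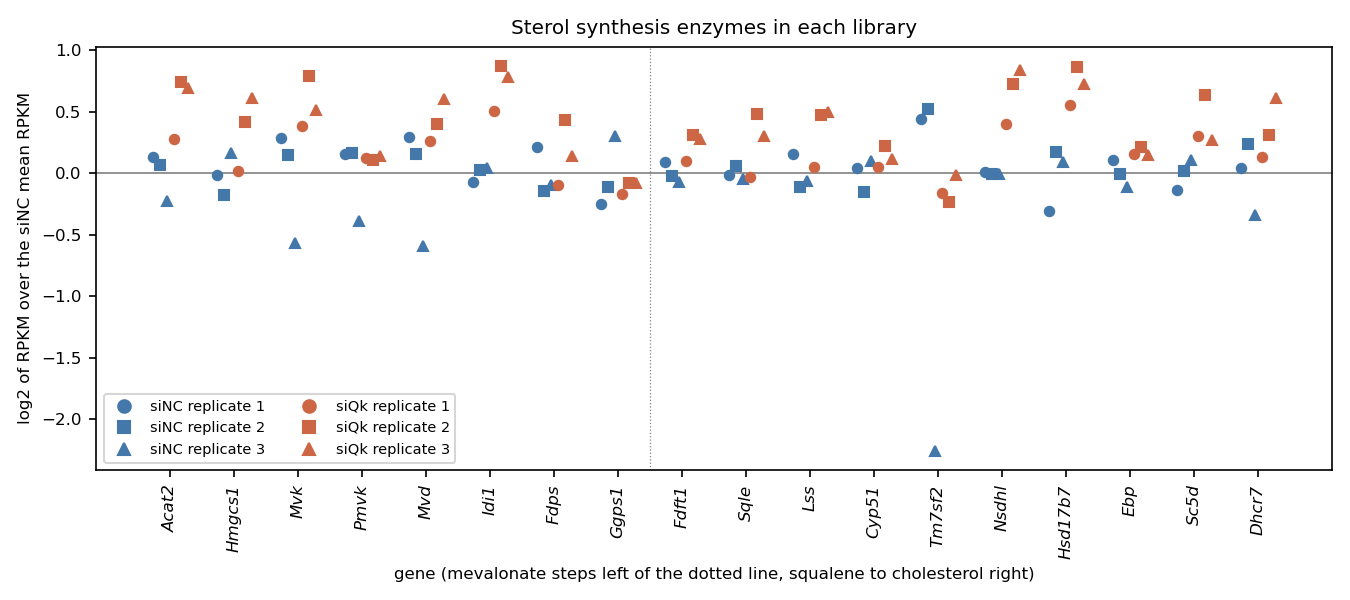
Log2 of RPKM over the siNC mean RPKM (vertical axis) for the 18 sterol enzymes in each of the 6 libraries, with blue for siNC, orange for siQk and the shape for the replicate. The orange circles (siQk 1) are the lowest orange points for 14 of 18 genes, and the low blue triangle at Tm7sf2 is siNC 3 at 2.18 RPKM.

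The genes that control SREBP activity showed small and uneven differences. All 5 log2 fold changes were above 0, with a median of 0.04, but none had an unadjusted p under 0.05 and all groups overlapped. Insig1, a sterol-regulated SREBP target that retains SCAP, had the highest mean level and, with all libraries, the largest log2 fold change of the group. It had 77.1, 125 and 105 RPKM in siNC and 111, 162 and 119 RPKM in siQk (log2 fold change 0.33, SE 0.26), and the spread was 24.1 RPKM (SD) within siNC and 27.1 RPKM within siQk. The fold change was 0.15 without siQk 2 and 0.16 without siNC 1. Its paralog Insig2 had 10.7, 12.5 and 13.1 RPKM against 12.3, 14.0 and 11.2 RPKM (log2 fold change 0.02, SE 0.14, -0.07 without siQk 2). Insig1 was 8.48 times Insig2 in mean RPKM in siNC and 10.5 times in siQk.

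Srebf1 had 103, 99.5 and 49.0 RPKM in siNC and 90.2, 62.8 and 109 RPKM in siQk, low in both of the libraries that stand apart (log2 fold change 0.04, SE 0.40). Srebf2 had 77.3, 73.9 and 46.8 RPKM in siNC and 64.2, 65.5 and 83.8 RPKM in siQk (log2 fold change 0.09, SE 0.24). In mean RPKM Srebf1 was 1.27 times Srebf2 in siNC and 1.22 times in siQk, and in single libraries the ratio ran from 1.05 to 1.35 in siNC and from 0.959 (siQk 2) to 1.40 in siQk. Without siNC 3 the log2 fold changes became -0.21 for Srebf1 and -0.09 for Srebf2, so neither direction is stable. Scap, the sterol sensor that escorts them, had a log2 fold change of 0.01 (SE 0.22), which was -0.13 without siNC 3 and 0.24 without siNC 1.

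Of the 8 genes of sterol transport and LXR signaling, 4 were above 0 and 4 below, with a median log2 fold change of -0.01. Mylip, an LXR-induced ubiquitin ligase that degrades lipoprotein receptors (chr13:45389742-45412022, plus strand), was the one with an unadjusted p under 0.05. It had 4.48, 4.28 and 4.93 RPKM in siNC and 5.02, 8.84 and 6.87 RPKM in siQk (log2 fold change 0.57, SE 0.25, unadjusted p = 0.0392 in edgeR). Without siQk 2, its highest library, the log2 fold change was 0.35, and p was under 0.05 in 9 of 16 alternative settings. The other LXR-linked genes had values below 0 with all libraries. Abca1, a sterol exporter, had 2.38, 4.99 and 6.53 RPKM in siNC and 5.39, 2.42 and 3.78 RPKM in siQk (log2 fold change -0.29, SE 0.56). Its direction is not stable, at -0.61 without siNC 1, 0.08 without siNC 3 and 0.33 without siNC 3 and siQk 2 together. Abcg1 had a log2 fold change of -0.36 (SE 0.24, -0.12 without siNC 2) and overlapping groups.

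The LXR receptors themselves overlapped too. Nr1h3 had 2.68, 1.78 and 0.916 RPKM in siNC and 1.55, 0.955 and 1.74 RPKM in siQk (log2 fold change -0.36, SE 0.50), and the value was -0.66 without siNC 3 and 0.05 without siNC 1. Nr1h2 had 13.6, 17.2 and 9.82 RPKM in siNC and 13.0, 13.1 and 13.2 RPKM in siQk (log2 fold change -0.07, SE 0.21), and was 7.56 times Nr1h3 in siNC and 9.26 times in siQk. Without siNC 2 its log2 fold change was 0.11. Lysosomal export genes differed little. Npc1 had 6.72, 6.97 and 6.78 RPKM in siNC and 7.39, 7.01 and 6.98 RPKM in siQk, so the nearest values were 6.97 and 6.98 RPKM (log2 fold change 0.04, SE 0.04). Its log2 fold change was 0.0096 without siQk 1 and 0.08 without siNC 3 and siQk 2 together. Npc2, the most abundant of the 8, had 34.1, 27.7 and 23.7 RPKM against 28.6, 35.7 and 29.9 RPKM (log2 fold change 0.12, SE 0.17), and the sterol carrier Stard4 had a log2 fold change of 0.11 (SE 0.22). Npc2 was at 0.02 without siQk 2 and 0.26 without siNC 1, and Stard4 at -0.05 without siQk 2 and 0.21 without siQk 3.

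The 8 fatty acid enzymes had a median log2 fold change of 0.13, with 7 above 0, none at an unadjusted p under 0.05 and 1 whose groups were apart (12.5%, beside 5.35% of all genes). Without siQk 3 that median was 0.05, without siNC 3 it was 0.06, and all other values with a single library left out lay between 0.09 and 0.17. The gene whose groups were apart was Acly, which supplies acetyl-CoA to both pathways, at 368, 320 and 335 RPKM in siNC and 424, 439 and 370 RPKM in siQk (log2 fold change 0.24, SE 0.10). Its unadjusted p was 0.116 in edgeR. Fads2, a fatty acid desaturase, had the largest value, with 62.0, 61.9 and 39.6 RPKM in siNC and 64.8, 61.5 and 72.4 RPKM in siQk (log2 fold change 0.26, SE 0.20), and siNC 3 was again the low control. Without siNC 3 the Fads2 value was 0.10. Its neighbour in function Fads1 had 98.6, 110 and 80.5 RPKM against 98.4, 92.4 and 103 RPKM (log2 fold change 0.0047, SE 0.12, -0.09 without siNC 3).

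Scd2, the highest member by siNC mean, had 438, 306 and 440 RPKM in siNC and 415, 358 and 446 RPKM in siQk (log2 fold change 0.01, SE 0.22, -0.16 without siNC 2). The siQk mean was 406 RPKM for Scd2 and 411 RPKM for Acly. Scd1 had 54.1, 59.1 and 49.0 RPKM in siNC and 62.3, 50.3 and 66.2 RPKM in siQk (log2 fold change 0.12, SE 0.14). That value was 0.03 without siQk 3 and 0.23 without siQk 2. Scd2 was 7.30 times Scd1 in siNC and 6.82 times in siQk. The carboxylase Acaca, Fasn and the elongase Elovl6 had log2 fold changes of 0.14 (SE 0.15), 0.14 (SE 0.17) and -0.10 (SE 0.15), with overlapping groups. Without siNC 2 the values were 0.28 for Acaca and -0.02 for Elovl6, and Fasn was at 0.04 without siNC 3 and 0.25 without siQk 2. Without siNC 3 and siQk 2 together, Acaca was at 0.03 and Elovl6 at -0.25. Of the 75-base stretches of Acaca, 26.75% also occur in other annotated genes, most of all in Gm5182. Of these 8 genes, 5 had their lowest siQk value in siQk 2 (62.5%, beside 41.6% of all genes tested) and 2 in siQk 1 (25.0%, beside 29.8%).

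**Figure D5:**
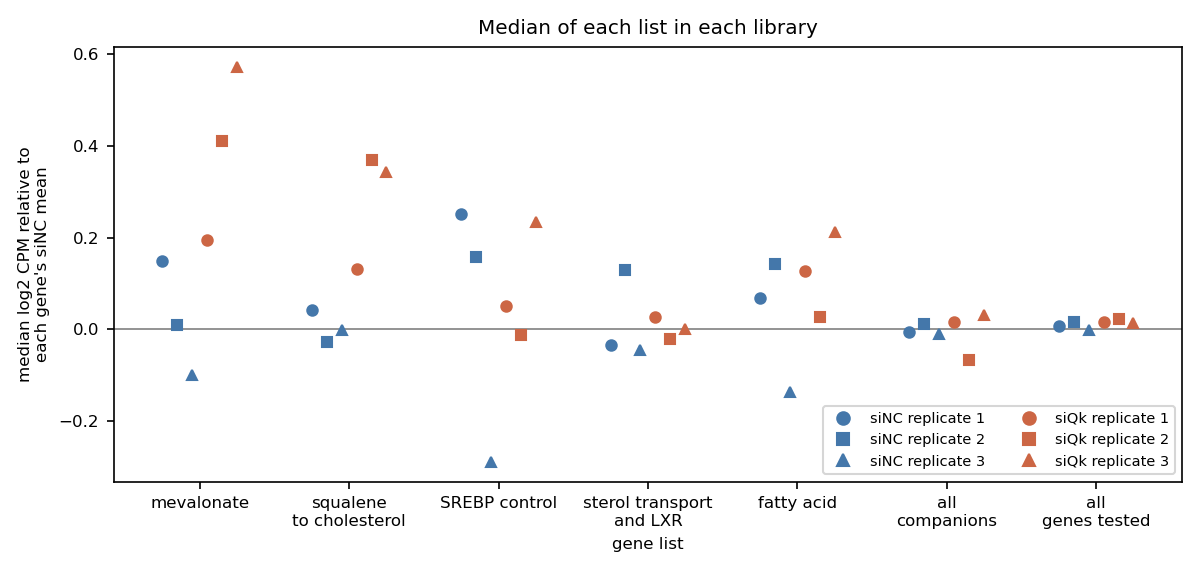
Median log2 CPM relative to the siNC mean of each gene (vertical axis) for the 5 roles, the other pathway genes (labelled companions) and all genes tested, in each library. The siQk points of the sterol roles reach 0.57, and those of all genes tested lie between 0.013 and 0.022.

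Correlations between pairs of genes were taken over the 6 libraries with the group means removed. For the sterol enzymes the median Pearson correlation was 0.38 over 153 pairs, with 41.2% of pairs over 0.5 and 8.50% under -0.5, beside a median of -0.0010, 23.5% and 23.4% for all genes tested. The mevalonate genes had a median of 0.45 (28 pairs), the late steps 0.36 (45 pairs) and the fatty acid enzymes -0.06 (28 pairs). For the SREBP control genes it was -0.45 (10 pairs, 40% over 0.5 and 50% under -0.5). The sterol transport and LXR genes had a median of -0.12 (28 pairs). Over all 39 members the median was 0.06 (741 pairs), a value that was -0.0466 without siQk 1 and 0.13 under total counts. These values rest on 6 libraries and share their scaling, so they are given without a p. Among the pairs of related genes, the correlation was 0.91 for Srebf1 with Srebf2, 0.93 for Fads1 with Fads2, 0.79 for Insig1 with Insig2, 0.56 for Nr1h2 with Nr1h3 and 0.10 for Scd2 with Scd1.

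Of 48 other genes of these pathways that are no members, 47 were tested, and 0 were called. Their median log2 fold change was 0.0017, with 24 above 0 and 23 below, and 1 had an unadjusted p under 0.05 (2.13%, beside 2.89% of all genes in either direction), a count that ran from 0 to 3 over the alternative settings. That gene was Elovl5, a fatty acid elongase, at 72.7, 84.8 and 69.0 RPKM in siNC and 95.1, 106 and 93.1 RPKM in siQk (log2 fold change 0.36, SE 0.09, unadjusted p = 0.0339 in edgeR). Among the 11 further sterol and isoprenoid genes, 9 were above 0 (median 0.09), and Coq2, which attaches the isoprenoid tail of ubiquinone, had the smallest p. It had 31.4, 29.7 and 28.1 RPKM in siNC and 22.3, 12.3 and 26.1 RPKM in siQk (log2 fold change -0.58, SE 0.34), with the groups apart and siQk 2 lowest.

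Among the 8 genes of SREBP processing and INSIG turnover, 6 were below 0 (median log2 fold change -0.09). The 12 tested genes of further transport, esterification and oxysterols had a median of -0.02, and the lipoprotein receptor Scarb1 had the smallest p, with a log2 fold change of 0.28 (SE 0.23). The 16 genes of fatty acid supply and later steps had a median of 0.0014. For 29 of the 47 (61.7%) the lowest siQk value was in siQk 2, beside 41.6% of all genes tested.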

How the data were processed

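Per the labels and the study's methods, the authors made TruSeq version 2 poly-A libraries, sequenced read pairs, aligned them with OLego and counted genes with Quantas (versions not given in the sources used here). The labels name mm10. The deposited values are expected counts per gene (21.9% to 22.9% not whole), exon length and RPKM, and the authors' RPKM was rebuilt from the counts, the length and the library total, so it carries no other scaling. Positions are from the GENCODE annotation of GRCm38 and promoters from RefSeq.

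The members, gene lists, motifs and tests were chosen with earlier results of these data known. Expected counts were rounded, genes kept at an average log2 CPM above 0, scaled by TMM (factors 0.957 to 1.02) and tested with the edgeR 4.0.16 quasi-likelihood F test (R 4.3.3) with Benjamini-Hochberg adjustment over 12665 genes. A call needed p under 0.01 and adjusted p under 0.1. Each SE was computed from the variation among libraries of log2 CPM after TMM (prior count 2). The fit was tested on simulated counts with known changes. Those changes were all larger than that of any member, so the check does not cover changes as small as the members had. Full values are given for members with unadjusted p under 0.05 or groups apart, for the largest change and highest level per role, for fixed paralog pairs, and for other pathway genes of smallest p. Some genes of the lists are not reported here. Shared sequence was counted as 75-base exon stretches found in another annotated gene. Alternatives were DESeq2 1.42.0, limma 3.58.1 voom, the exact test, other scalings and filters, a replicate block and leaving out libraries.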

Additional observations from a re-analysis of the deposited data

How the results depend on the processing

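No member was called in any of 624 refits over 16 settings, and 43 refits in 15 members changed the sign of the fold change. Nsdhl and Hsd17b7 had an unadjusted p under 0.05 in all 16 settings (log2 fold change 0.54 to 0.76 and 0.56 to 0.77), Idi1 in 15, Acat2 in 14 and Mvk and Mylip in 9 each. Calls over all genes were 5 with the edgeR exact test, 19 with DESeq2, 2 with voom and 0 to 1 with a library left out (0 without siNC 1, where Qk was at -3.09). With a library left out, Qk ran from -3.19 to -2.67, the median log2 fold change of the members from 0.12 (without siNC 3) to 0.22 (without siNC 1), that of the sterol enzymes from 0.20 (without siQk 3) to 0.44 (without siQk 1) and that of the fatty acid enzymes from 0.05 (without siQk 3) to 0.17 (without siNC 2). Members with an unadjusted p under 0.05 ran from 2 (without siQk 3) to 7, and the median correlation of members from -0.0466 (without siQk 1) to 0.12. The correlation was 0.13 under total counts. The other pathway genes at that p, 1 as reported, were 2 under DESeq2 size factors, no filter, a filter by expression, the exact test, DESeq2, voom and TMM over all listed genes, 3 with the replicate block, 0 without siQk 2 and siNC 3 together, and 0 to 2 with a library left out. TMM over all listed genes and leaving out both libraries were chosen after seeing the data. The replicate numbers were not taken to pair the libraries, since the deviations of same-numbered libraries correlated at 0.21, 0.02 and -0.17, and with the replicate block the median was 0.14 for the members, 0.33 for the sterol enzymes and 0.13 for the fatty acid enzymes, Qk was at -2.95, 5 members were under that p and 1 gene was called. The cause of these shifts was not tested. Groups of 3 limit every statement to differences that exceed their spread, and p-values measure only that spread.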
